A study of Mus musculus with 6 samples.

Results

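The cells described here are type 2 dendritic cells of mouse visceral (epididymal) fat, picked by transcripts of Cd209a, which encodes a C-type lectin of the DC-SIGN family. A cell was a member when it held at least 3 unique molecular identifiers (UMIs, counted transcript molecules) of Cd209a and stayed below 3 other limits. Those limits were fewer than 20 UMIs of C1qa, C1qb and C1qc together, fewer than 3 of Ear2, and fewer than 6 of Col3a1 and Col1a2 together. The rule found 79 members among 2114 kept cells (3.74%). Conventional dendritic cells arise from bone marrow precursors under the growth factor FLT3 ligand. They take up antigen in tissues, load its peptides on MHC class II molecules and carry them to lymph nodes. The type 2 subset depends in large part on the transcription factor IRF4 and presents mainly to CD4+ T cells; in fat it lies among far more numerous macrophages.

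The fat was digested with collagenases, and sorted cells had the leukocyte antigen CD45 and the myeloid integrin chain CD11b at their surface, and their RNA was sequenced cell by cell. There were 3 samples of the control diet and 3 of the high-fat diet, which the labels call HFD. Strain, sex, age and weeks on the diet are not given in the sources used here, and the labels do not say whether a sample is 1 animal or a pool. A p-value over samples thus sets a diet difference against the spread of these samples, and that spread can be technical. The 6 samples held 710 to 1200 barcodes and 4477100 to 6992602 UMIs each. The same barcodes recur between samples: 5511 entries came from 2195 distinct barcodes, and each barcode was counted only in the sample where it had most UMIs. Of the 79 members, 32 had a barcode listed in a single sample and 47 a barcode that other samples listed too.

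Control 1, 2 and 3 gave 32, 12 and 19 members, and HFD 1, 2 and 3 gave 7, 2 and 7. Their summed depth was 266418, 108173 and 164496 UMIs in control and 82208, 14264 and 65402 UMIs in HFD. A single UMI in HFD 2 was thus worth 70.1 CPM (a gene's UMIs scaled to a common total per group of cells), and values of that sample rest on 2 cells. Members held a median of 8290 UMIs, from 1717 to 19279, against 8607 in the other kept cells. Only control 1 reached the 20 members per sample set as the minimum for a test, so no diet test was made within the members. Means and SDs of members against other cells are over the 5 samples with at least 5 members, each with equal weight, which leaves out HFD 2.

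Values used by the rule are given only as description. Cd209a stood at 2049, 1932 and 1514 CPM in control 1, 2 and 3 and 1216, 1963 and 1269 CPM in HFD 1, 2 and 3 in members, with a median of 12 UMIs per cell and a highest cell of 60. The C1q genes together held a median of 8 UMIs per member, and Ear2 was at 0 in 51 of 79. Of 265 kept cells with at least 3 Cd209a UMIs, 100 were left out by C1q alone, 38 by Ear2 alone, 1 by collagen alone and 47 by several limits. Just inside the Cd209a limit, the 10 members with 3 or 4 UMIs had Klrd1 at 450.3 and H2-Oa at 338 CPM. Just outside it, 14 cells with 2 UMIs had 285 and 216 CPM, and 52 cells with 1 UMI had 134 and 103 CPM. The 10 cells just past the C1q limit, with 20 to 29 UMIs, had Klrd1 at 235, H2-Oa at 299.8 and Flt3 at 97.2 CPM. All 100 cells left out by C1q alone together had Klrd1 at 67.6, H2-Oa at 60.1 and Flt3 at 19.2 CPM, and the members 418, 224 and 74.2 CPM. Klrd1 was lower in the cells just past either limit than in members, whereas H2-Oa and Flt3 in the cells just past the C1q limit were not. The 38 cells left out by Ear2 alone had Klrd1 at 98.3, H2-Oa at 50.3 and Flt3 at 13.7 CPM.

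**Figure D1:**
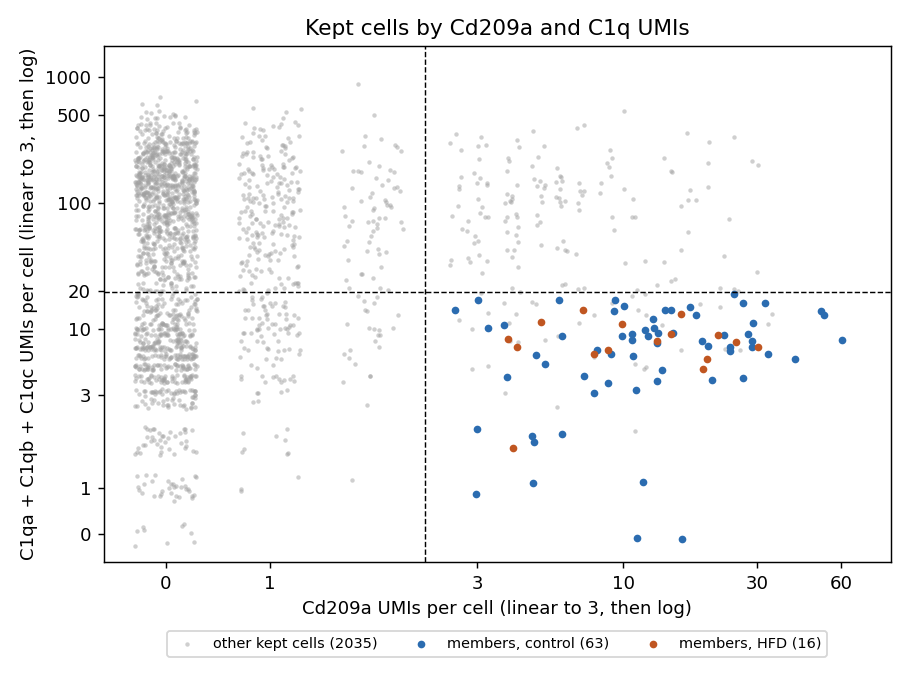
UMIs of Cd209a (x axis) and of C1qa, C1qb and C1qc together (y axis) in each of the 2114 kept cells, on axes linear to 3 and logarithmic above, with small random offsets; dashed lines lie just below the limits of 3 and 20 UMIs. The 63 control and 16 HFD members lie in the lower right field, and grey cells in that field were left out by Ear2 or collagen UMIs.

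Markers of the subset other than the rule gene were read first. A gene was counted as higher or lower in members where its mean differed at least 2-fold from that of the other cells and in the same direction in each of the 5 samples. Genes with a mean of at least 20 CPM over both groups entered, 4549 in all, and this comparison carries no test because the members were chosen from the same cells. Leaving out Cd209a, 8 of 16 tested markers of type 2 dendritic cells stood higher and none lower, against a background of 3.74% of all genes higher and 10.9% lower. Counts for the other gene lists below read against the same shares. The median log2 ratio of those 16 was 1.34, and that of all 4549 genes was -0.09. The marker list was chosen with earlier results of these data known, so these counts are a description and no independent check of identity. Genes low in the other cells could pass the 20 CPM limit through the members alone, as Flt3, below, did. Flt3, the receptor that drives dendritic cell development, stood at 113, 46.2 and 54.7 CPM in control 1, 2 and 3 and 60.8, 70.1 and 30.6 CPM in HFD 1, 2 and 3. Its mean was 61.0 ± 31.0 CPM in members and 8.02 ± 4.63 CPM in the other cells, a ratio of 7.60, with UMIs in 36 of 79 members. Cbfa2t3, a transcriptional corepressor, had 101 ± 24.9 CPM in members and 41.2 ± 20.2 CPM in the other cells, and Tnip3, an inhibitor of NF-kB signalling, 412 ± 116 CPM in members and 167 ± 36.2 CPM in the other cells. Zbtb46, a transcription factor used to tell conventional dendritic cells from macrophages, was sparse, with 12 UMIs in 12 members (12 ± 9.43 CPM in members and 5.44 ± 2.78 CPM in the other cells). The 8 tested markers counted as neither higher nor lower were Clec10a, Mgl2, Sirpa, Itgax, Irf4, Cd7, Ccl17 and Clec4b1. Among them Sirpa had 123 ± 39.7 CPM in members and 198 ± 51.2 CPM in the other cells. Itgax, the CD11c gene, had 69.2 ± 23.9 CPM in members and 82.5 ± 30.9 CPM in the other cells. Cd1d1 was at 0 UMIs in members.

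Markers of other cell types were read in the same way. Of type 1 dendritic cell genes, Itgae and Cd8a held no UMI, and Xcr1, their chemokine receptor, held 1 in 1 cell. Of the 5 tested genes of that list 1, Irf8, was lower and 4, Cadm1, Wdfy4, Naaa and Batf3, were neither higher nor lower, with a median log2 ratio of -0.15. Batf3, a transcription factor that type 1 cells require, had 78.9 ± 45.6 CPM in members and 87.4 ± 38.7 CPM in the other cells. Of 8 plasmacytoid markers Klk1, Cox6a2 and Atp2a1 were at 0. Siglech, Ccr9 and Runx2 held UMIs in members but lay below the limit for testing. Of the 2 tested, Tcf4 was lower and Bst2 neither. The plasmacytoid list summed to 85.1 to 351 CPM in members and 224 to 330 CPM in the other cells, over 6 samples. Of the 8 tested migratory dendritic cell genes 2, Fscn1 and Cd63, were lower, and 6, among them Ccr7, Ccl22 and Relb, were neither, with a median of -0.13. Fscn1, an actin bundler, had 19.2 ± 22.7 CPM in members and 72.5 ± 29.8 CPM in the other cells. Natural killer cell genes Klrb1c, Gzma, Prf1 and Klra8 held no UMI, nor did the mast cell gene Cpa3 or the eosinophil genes Epx and Prg2. Ncr1 and Nkg7 held UMIs in members. The natural killer list summed to 0 to 24.3 CPM in members and 8.68 to 75.7 CPM in the other cells. The mast cell and eosinophil lists summed to at most 12.2 and 18.5 CPM in members. The classical monocyte list had 2 genes higher, Ms4a4c and Ccr2, 3 lower, and 2, Ly6c2 and Plac8, neither. Its defining gene Ly6c2 held 9 UMIs in all 79 members. Without Ear2, which the rule limits, the nonclassical monocyte list summed to 815 to 1612 CPM in members, over 6 samples. The other cells had 446 to 1020 CPM. Its 2 tested genes, Cx3cr1 and Nr4a1, were neither higher nor lower, with a median log2 ratio of 0.50. The sort antigens were present, with Ptprc, the CD45 gene, at 263 ± 34.7 CPM in members and 186 ± 58.9 CPM in the other cells and Itgam, the CD11b gene, at 100.3 ± 50.8 CPM in members and 145 ± 58.9 CPM in the other cells. Without the 3 C1q genes, which the rule limits, the macrophage list summed to 2068 to 2944 CPM in members and 12352 to 19390 CPM in the other cells, over 6 samples, and 10 of its 10 tested genes were lower. T cell genes summed to 511 CPM in HFD 1 and 259.9 in HFD 3 but to at most 36.5 in control. In those samples 3 members, 2 in HFD 1 and 1 in HFD 3, held at least 3 UMIs of T cell receptor complex genes, and Trac was at 0. A further 2 control members held B cell genes, among them 20 Cd79a UMIs in a control 1 cell and 56 Igkc UMIs in a control 3 cell. No doublet caller was run. Without these 5 cells 169 genes were higher in members and 539 lower, in place of 170 and 498, and 147 of the 170 and 453 of the 498 were shared.

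Receptors first described on natural killer cells led the comparison. Klrd1 encodes CD94, a receptor subunit that pairs with NKG2 proteins, and stood at 424, 481 and 395 CPM in control 1, 2 and 3 and 377, 911 and 291 CPM in HFD 1, 2 and 3. The other cells of the same samples had 43.5, 46.0 and 29.4 CPM in control and 6.40, 13.7 and 16.7 CPM in HFD, so every member value lay above every other-cell value, and the mean ratio was 13.8. UMIs of Klrd1 were found in 56 of 79 members. After each cell was thinned to 3000 UMIs the share was 52.1% of the 73 members deep enough, against 3.04% of cells with 20 or more C1q UMIs (9.43% unthinned, at a median of 10789.5 UMIs per cell). Klrb1b, an inhibitory receptor of the same gene complex, had 132 ± 55.8 CPM in members and 11 ± 4.05 CPM in the other cells. Klrk1, the gene of the activating receptor NKG2D, had 107 ± 46.1 CPM in members and 20.4 ± 11.7 CPM in the other cells. These 3 receptor genes were higher in members in each of the 5 samples, while the killing genes Gzma and Prf1 held no UMI.

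MHC class II genes, the machinery of presentation to CD4+ T cells, stood higher in members. Of 13 tested genes of the pathway 10 were higher and 1 was lower, with a median log2 ratio of 1.32. Cd74, the invariant chain that guides class II molecules, stood at 67751, 60015 and 58530.3 CPM in control 1, 2 and 3 and 56673, 59520.5 and 43882 CPM in HFD 1, 2 and 3, and the other cells at 28673, 26476 and 22006 CPM in control and 15996, 15933 and 18835 CPM in HFD. H2-Ab1, a class II chain, stood at 25531, 22187 and 23040.1 CPM in control 1, 2 and 3 and 22115, 23275 and 17859 CPM in HFD 1, 2 and 3. Members thus held more of both in each sample, with ratios of the means of 2.56 and 2.65. H2-Oa and H2-Ob encode H2-O, a modulator of peptide loading known from B cells and dendritic cells. H2-Oa stood at 259, 166 and 231 CPM in control 1, 2 and 3 and 170.3, 351 and 199 CPM in HFD 1, 2 and 3 against 42.4, 14.8 and 11 CPM in control and 10.3, 7.28 and 14.1 CPM in HFD in the other cells, a ratio of the means of 11.1. H2-Ob had 90.4 ± 11.2 CPM in members and 14.7 ± 8.73 CPM in the other cells. H2-DMb2, a chain of the peptide exchange factor H2-M, had 290.0 ± 105 CPM in members and 77.6 ± 52.4 CPM in the other cells, and Ciita, the master regulator of class II genes, 49.5 ± 20.03 CPM in members and 20.6 ± 4.41 CPM in the other cells. The gene that went the other way was Lgmn, a lysosomal protease (279 ± 85.8 CPM in members and 1113 ± 355 CPM in the other cells). Napsa, an aspartic protease gene, stood at 657, 629 and 578 CPM in control 1, 2 and 3 and 620.4, 1192 and 657 CPM in HFD 1, 2 and 3, with 628 ± 32.8 CPM in members and 93.6 ± 47.7 CPM in the other cells. Cells just outside the rule shared it. Pooled, Napsa was at 641 CPM in members and 616 CPM in the 10 cells with 20 to 29 C1q UMIs. It was at 414 CPM in the 38 cells left out by Ear2 alone and 183 CPM in the 100 left out by C1q alone. Of the class I list 1 of 15 genes was higher, Tap1, a chain of the peptide transporter (108 ± 47.8 CPM in members and 48.5 ± 10.8 CPM in the other cells), and none was lower. Over all genes 3.74% were higher and 10.9% lower, so 1 of 15 lies near that background.

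C-type lectins, which bind sugars on microbes and self proteins, split by gene. Mgl2, the CD301b lectin used to mark type 2 dendritic cells of skin, stood at 1137, 730.3 and 948 CPM in control 1, 2 and 3 and 1533, 0 and 0 CPM in HFD 1, 2 and 3. HFD 1 was the highest sample, while the 9 members of HFD 2 and HFD 3 held no UMI. Mgl2 was not particular to members: pooled over samples it was at 947 CPM in members and 1289 CPM in the 38 cells left out by Ear2 alone. Its paralog Clec10a stood at 826, 915 and 881 CPM in control 1, 2 and 3 and 608, 491 and 459 CPM in HFD 1, 2 and 3, and the means were 738 ± 197 CPM in members and 376 ± 170.0 CPM in the other cells. Clec4b1, another lectin receptor gene of myeloid cells, had 532 ± 121 CPM in members and 281 ± 36.8 CPM in the other cells. The neighbouring Cd209 family genes did not follow Cd209a: Cd209f had 47.2 ± 52.2 CPM in members and 412 ± 355 CPM in the other cells and Cd209g 11.5 ± 12.8 CPM in members and 161 ± 137 CPM in the other cells. Cd209c was higher on average but at 0 in HFD 1, with 40 UMIs in 22 members, 46.5 ± 36.7 CPM in members and 5.49 ± 4.39 CPM in the other cells. Mrc1, the mannose receptor of macrophages, had 95.7 ± 40.5 CPM in members and 287 ± 121 CPM in the other cells, and Cd207, the langerin gene, no UMI. Over the list 1 of 18 genes was higher, Cd209a itself, and 4 lower. Values of the Cd209 family, of Mgl2 and Clec10a and of the H2 genes are uncertain where reads of similar copies were divided in counting.

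Transcription factors of the lineage differed little as a list, with a median log2 ratio of -0.02. Of 17, 2 were higher and 3 lower, against 3.74% and 10.9% of all genes. The higher ones were Cbfa2t3 and Runx3 (43.2 ± 27.7 CPM in members and 16.7 ± 7.39 CPM in the other cells). The lower ones were Irf8, required for type 1 and plasmacytoid dendritic cells (48.4 ± 31.7 CPM in members and 114 ± 21.1 CPM in the other cells), Tcf4, the plasmacytoid regulator (31.9 ± 21.5 CPM in members and 82.4 ± 9.99 CPM in the other cells), and Id2, an inhibitor of helix-loop-helix factors (40.3 ± 38.7 CPM in members and 203 ± 22.5 CPM in the other cells). Irf4 was thinly covered, with 27 UMIs in 16 members and 38.5 ± 32.5 CPM in members and 28.5 ± 19.2 CPM in the other cells, so that a difference was not detectable at this depth.

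Among receptors, Ccr2, which draws monocytes and dendritic cell precursors to inflamed tissue, stood at 368, 490.0 and 432 CPM in control 1, 2 and 3 and 377, 280.4 and 382 CPM in HFD 1, 2 and 3, with 409.8 ± 51.2 CPM in members and 193 ± 114 CPM in the other cells. Itgb7, an integrin chain of cells that home to mucosa, stood at 263, 324 and 407 CPM in control 1, 2 and 3 and 243, 491 and 214 CPM in HFD 1, 2 and 3, a ratio of the means of 7.88. Ltb4r1, the receptor of the attractant leukotriene B4, had 275 ± 88.8 CPM in members and 44.8 ± 33.7 CPM in the other cells. Each of these was higher in members in all 5 samples. Pooled, Itgb7 was at 304 CPM in members and 251 CPM in the 10 cells with 20 to 29 C1q UMIs. It was at 162 CPM in the 38 cells left out by Ear2 alone and 70.9 CPM in the 100 left out by C1q alone. Il13ra1, a chain of the interleukin 13 receptor, had 73.8 ± 23.5 CPM in members and 16.7 ± 4.82 CPM in the other cells, and Il1r2, a decoy receptor of interleukin 1, 50.6 ± 19.4 CPM in members and 9.76 ± 5.14 CPM in the other cells. Csf1r, the receptor on which most macrophages depend, was lower, with 144 ± 59.2 CPM in members and 454 ± 52.5 CPM in the other cells. Csf2ra, a chain of the GM-CSF receptor, was close in both, with 278 ± 26.6 CPM in members and 243 ± 22.1 CPM in the other cells. Ccr7, which takes dendritic cells to lymph nodes, held 53 UMIs in 21 members and had 91.3 ± 65.0 CPM in members and 112 ± 46.9 CPM in the other cells.

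Ligands for T cells and cytokines differed by gene, and chemokines stood lower. Tnfsf9, a costimulatory ligand of T cells, stood at 979.7, 721 and 772 CPM in control 1, 2 and 3 and 997, 561 and 1147 CPM in HFD 1, 2 and 3 and had 923 ± 175 CPM in members and 209.7 ± 16.0 CPM in the other cells. It was the single gene of 8 tested costimulatory and checkpoint ligands past the 2-fold limit; Cd83 (1357 ± 271 CPM in members and 764 ± 64.9 CPM in the other cells) and Icam1 (344 ± 170.1 CPM in members and 174 ± 35.3 CPM in the other cells) lay below that limit. Il1b, the gene of interleukin 1 beta, stood at 3059, 2431 and 3252 CPM in control 1, 2 and 3 and 827, 1893 and 5183 CPM in HFD 1, 2 and 3, from the lowest in HFD 1 to the highest in HFD 3, against 1139 ± 512 CPM in the other cells. A set of 4 cytokine genes was lower in members, among them Tnf (86.9 ± 49.96 CPM in members and 313 ± 74.6 CPM in the other cells) and Il10 (9.87 ± 14.1 CPM in members and 69.3 ± 20.1 CPM in the other cells). Il12a and Il27 held no UMI and Il12b 2. Of 17 chemokine genes tested none was higher and 11 were lower, with a median log2 ratio of -2.12. Ccl2, which attracts monocytes, had 242 ± 134 CPM in members and 1627 ± 1122 CPM in the other cells, and Cxcl2, which attracts neutrophils, 856 ± 771 CPM in members and 3728 ± 373 CPM in the other cells.

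Other genes among the 20 with the largest ratios act outside antigen presentation. Plbd1, a phospholipase-like protein of granules, stood at 837, 804 and 693 CPM in control 1, 2 and 3 and 766, 631 and 657 CPM in HFD 1, 2 and 3, with UMIs in 76 of 79 members and 752 ± 75.1 CPM in members and 147 ± 87.3 CPM in the other cells. Lsp1, an actin-binding protein of leukocytes, stood at 1344, 1729 and 1410.4 CPM in control 1, 2 and 3 and 2359.9, 1963 and 1590.2 CPM in HFD 1, 2 and 3, a ratio of the means of 4.00. Ms4a4c, a membrane protein gene, was less even, at 480.4, 129 and 292 CPM in control 1, 2 and 3 and 36.5, 911 and 291 CPM in HFD 1, 2 and 3, with HFD 1 the lowest sample. Rnase6, a secreted ribonuclease, had 126 ± 34.9 CPM in members and 28.0 ± 16.9 CPM in the other cells, and Tspan13, a tetraspanin, 156 ± 14.9 CPM in members and 41.5 ± 12.2 CPM in the other cells. The other 5 were Mcemp1, Agpat4, Sirpb1b, Tmem51 and Avpi1, with ratios of 4.79, 3.79, 3.78, 3.71 and 3.71.

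**Figure D2:**
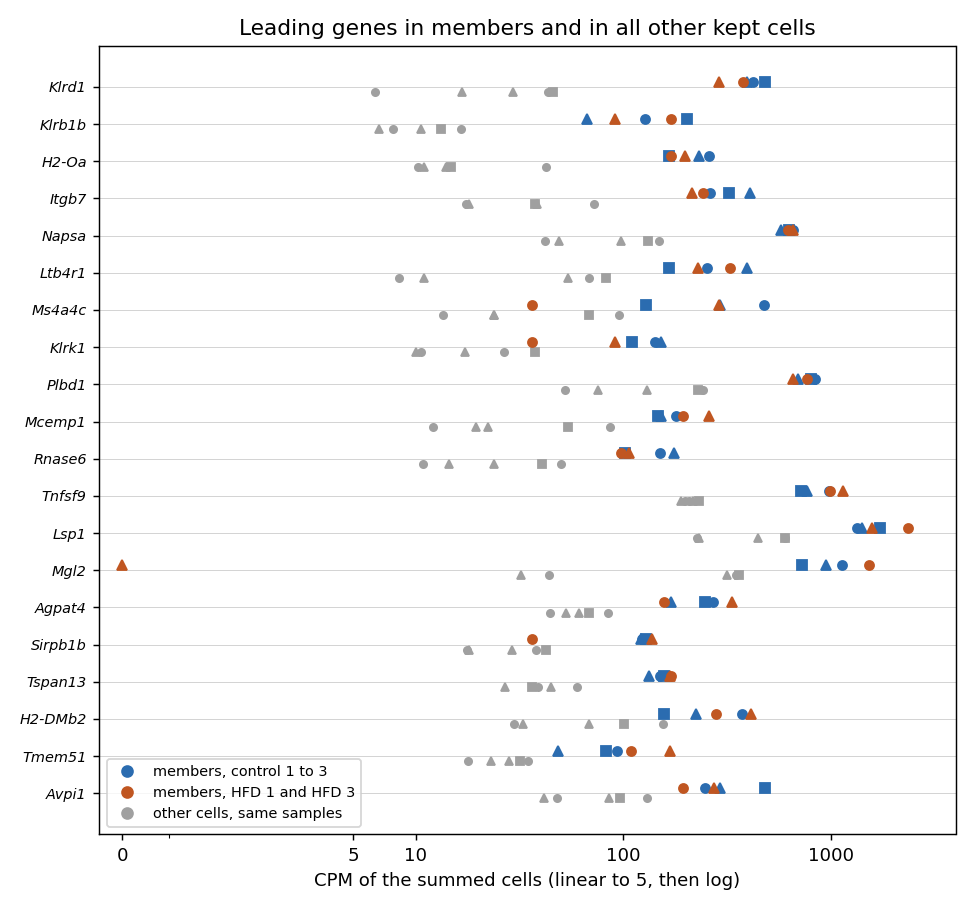
CPM (x axis, linear to 5 and logarithmic above) of the 20 genes with the largest ratio of members to other cells under the naming rule, in members of control 1 to 3 (blue) and of HFD 1 and HFD 3 (orange) and in the other cells of the same samples (grey). Circles, squares and triangles are replicates 1, 2 and 3; except for Mgl2, where HFD 3 is at 0, each member value lies above the grey value of its own sample.

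Genes of lipid handling and degradation stood lower in members. Of 22 tested lysosome genes 14 were lower and none higher, against 10.9% and 3.74% of all genes, with a median log2 ratio of -1.19. Of 12 fatty acid and lipid droplet genes 7 were lower, with a median of -1.98. Fabp4, a fatty acid carrier, had 54.9 ± 24.9 CPM in members and 576 ± 316 CPM in the other cells, and Trem2, a lipid-sensing receptor of macrophages in obese fat, 54.7 ± 40.0 CPM in members and 593 ± 512 CPM in the other cells. The 21 tested nuclear genes of oxidative phosphorylation and the 12 of glycolysis and hypoxia held no gene past the 2-fold limit in either direction, with medians of -0.28 and -0.05.

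Some transcripts abundant in the other cells were also read in members at a small share of the level there. Retnla, an interleukin 4 response gene secreted by macrophages, was found in 75 of 79 members and stood at 2245, 1109 and 1885 CPM in control 1, 2 and 3 and 60.8, 140.2 and 259.9 CPM in HFD 1, 2 and 3. The other cells had 12828, 8875 and 10363 CPM in control and 432, 784 and 1469 CPM in HFD. In the 5 samples the members' level was 12.5% to 18.2% of that of the other cells, although the level itself ranged widely. The same share was 8.18% to 16.1% for Apoe, a lipid carrier, 8.69% to 18.7% for the chemokine Ccl7, 10.3% to 22.1% for the protease Ctsd and 7.86% to 15.7% for Trem2. Slpi and Saa3, an antiprotease and an acute phase protein, held UMIs in 31 of the 32 members of control 1 each, where the other cells had 3370.3 and 4136 CPM. In control 3, where the other cells had 15.3 and 11.4 CPM, 1 and 0 of 19 members did. The part of free RNA in these values was not tested, and the genes of this paragraph were chosen after their values were seen. Pkm, Ldha, Cd74 and H2-Ab1 did not share this pattern, at 59.7% to 136%, 74.5% to 170.5%, 227% to 354% and 217% to 428% of the other cells.

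**Figure D3:**
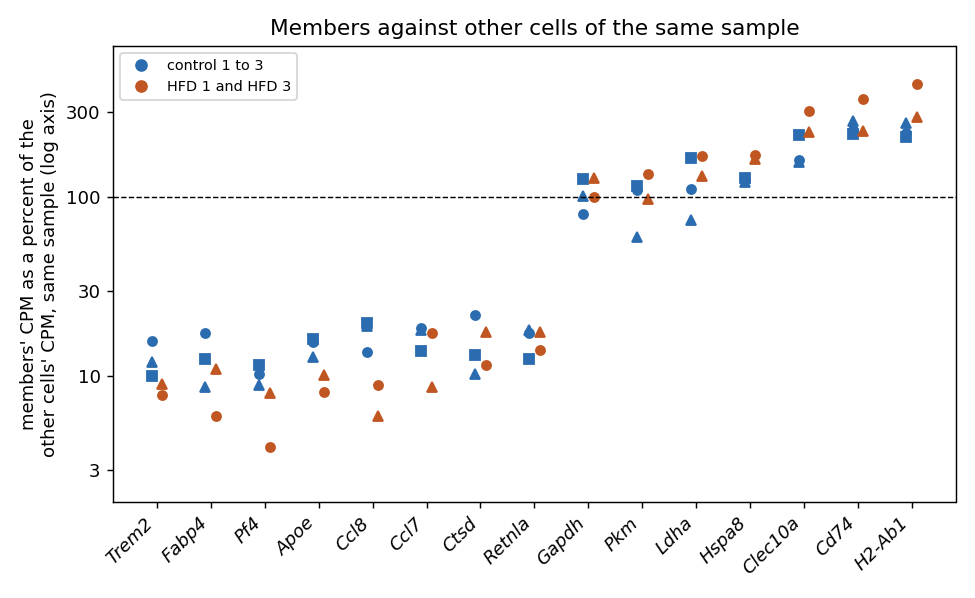
Level of 15 genes in members as a percent of the level in the other cells of the same sample (y axis, logarithmic), for control 1 to 3 (blue) and HFD 1 and HFD 3 (orange); circles, squares and triangles are replicates 1, 2 and 3, and the dashed line marks equal levels. The 8 genes on the left lie between 4.02% and 22.1%, and the class II genes on the right at 217% or more.

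Members were a larger share of each control sample than of any HFD sample. They made up 8.25, 4.62 and 5.62% of kept cells in control 1, 2 and 3 and 1.55, 0.678 and 1.84% in HFD 1, 2 and 3. The diets did not overlap, with means of 6.16% ± 1.88 (SD, n = 3) and 1.36% ± 0.605 (SD, n = 3). The exact two-sided permutation test over the 20 arrangements gave p = 0.1 for 3 against 3 samples, which is the smallest p this design allows, so the difference cannot pass a threshold of 0.05. The exact binomial 95% interval of a sample, which covers counting error only, was 2.41% to 7.92% in control 2, the lowest control sample, and 0.744% to 3.76% in HFD 3, the highest HFD sample. These intervals overlap. With cells thinned to 3000 UMIs and the limits scaled down, the means were 7.56% and 1.60%. Shares of sorted cells do not give the number of cells in the tissue. A rise in another cell type and fewer dendritic cells cannot be told apart. Membership also depends on the Cd209a level of a cell. In members of HFD 1 and HFD 3 that level lay below all control samples, while HFD 2 lay within the control range. The HFD 1 level includes 2 cells with T cell genes, which held 9 and 5 Cd209a UMIs among 6890 and 16974 UMIs. That of HFD 3 includes 1 such cell, with 4 among 7691. Part of the gap thus lay in these cells. Pooled control members held 1862 CPM of Cd209a, and pooled HFD members 1303 CPM. Whether less Cd209a per cell lowered the HFD share was not tested.

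The share also depended on how barcodes were counted. Counting a barcode in all samples that list it gave 140 control and 58 HFD entries and means of 4.42% and 2.66%, a smaller gap. Of those 58 HFD entries, 41 (70.7%) had the largest count of their barcode in a control sample. With only the barcodes listed in a single sample, 32 members, control 1, 2 and 3 stood at 9.14, 1.80 and 2.98% and HFD 1, 2 and 3 at 1.40, 0.990 and 2.06%. Control 2 then lay within the HFD range, and the exact permutation p was 0.2. Cells with at least 3 Cd209a UMIs, whatever their other genes, made up 27.3, 15.4 and 19.53% of kept cells in control and 5.74, 2.71 and 5% in HFD. Members were 25% to 36.8% of those cells, with both ends of that range in HFD samples.

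**Figure D4:**
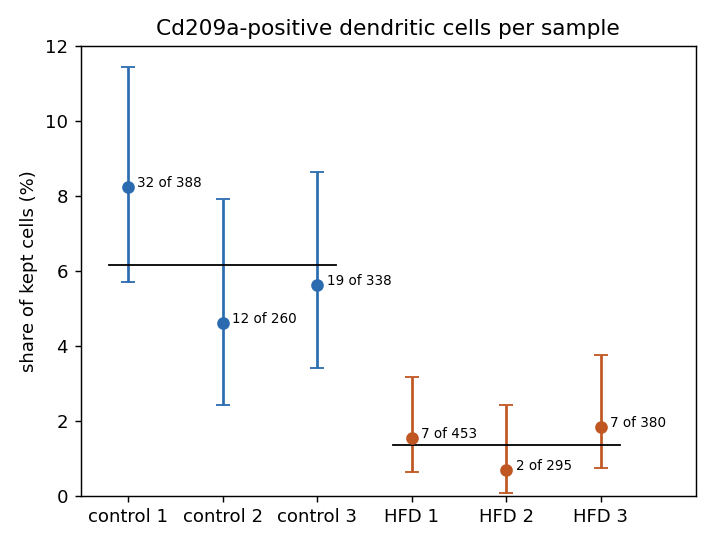
Share of members among kept cells (y axis, %) in each control (blue) and HFD (orange) sample, with exact binomial 95% intervals, the counts beside each point and the mean of each diet as a black line. The 3 control samples lie at 4.62% to 8.25% and the 3 HFD samples at 0.678% to 1.84%.

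Within the members, levels were set side by side for the 3 control samples and for HFD 1 and HFD 3, whose 14 cells leave wide counting error. Of those 14 cells, 3 held the T cell genes named above and were not left out. Of 2179 genes with a mean of at least 50 CPM, both HFD samples lay above all 3 control samples in 19.2% and below them in 10.8%, and counts for gene groups read against these shares. No test was made, and the genes named here were chosen after their values were seen. Lysosome genes had 9 of 19 above and 1 below, glycolysis and hypoxia genes 5 of 10 above and none below, and oxidative phosphorylation genes 8 of 21 above and none below. Ldha, which makes lactate, stood at 338, 499 and 249 CPM in control 1, 2 and 3 and 851, 561 and 566 CPM in HFD 1, 2 and 3 and in the other cells at 304, 302 and 335 CPM in control and 499, 446 and 429 CPM in HFD. Pkm, a glycolytic enzyme, stood at 297, 351 and 176 CPM in control 1, 2 and 3 and 876, 701 and 566 CPM in HFD 1, 2 and 3 and in the other cells at 271, 305 and 295 CPM in control and 645, 543 and 581 CPM in HFD. Both genes were therefore higher in HFD in members and in the other cells alike. Ctsd, a lysosomal protease, stood at 180.2, 111 and 158 CPM in control 1, 2 and 3 and 450.1, 771 and 535 CPM in HFD 1, 2 and 3, and the other cells at 815, 846 and 1539 CPM in control and 3868, 3461 and 3015 CPM in HFD, so that members followed the other cells at a lower level.

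Class II genes had 5 of 12 below the control samples in HFD 1 and HFD 3 and 1 above. The gap was narrow: H2-Aa stood at 22472, 21216 and 20937 CPM in control 1, 2 and 3 and 20618, 21453 and 16896 CPM in HFD 1, 2 and 3, with HFD 1 just under control 3 and HFD 2 within the control range. In the other cells H2-Aa was at 10151, 9446 and 8414 CPM in control and 5529, 5618 and 6593 CPM in HFD. The interleukin 4 response list had 5 of 8 below, led by Retnla, whose values stand above beside those of the other cells. Over pooled members Retnla had 1028 UMIs in control and 24 in HFD, or 1907 CPM (exact Poisson 95% interval 1792 to 2027) and 148 CPM (95 to 221), intervals that cover counting error only. Of the type 2 dendritic cell markers other than Cd209a 4 of 12 lay below, Clec10a, Itgax, Klrd1 and Ccl17, and none above. For Klrd1, HFD 1 and HFD 3 lay below all control samples and HFD 2 above them, and the pooled intervals overlapped, at 427 CPM (373 to 485) and 389 CPM (299 to 498). The 2 members of HFD 1 with T cell genes held 6890 and 16974 of its 82208 UMIs but 0 and 1 Klrd1 UMIs. The place of HFD 1 below the control samples for Klrd1 depended on counting these 2 cells. Mt1, a metallothionein, lay lower in HFD in members and higher in HFD in the other cells. It stood at 1216, 545 and 498 CPM in control 1, 2 and 3 and 279.8, 140.2 and 321 CPM in HFD 1, 2 and 3, against 2057, 1320.5 and 2037 CPM in control and 2244, 2164 and 2564 CPM in HFD in the other cells.

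A fit could be made only with a barcode counted in all samples that list it, which gave 20 or more members in control 1 to 3, HFD 2 and HFD 3. Of the 41 entries in HFD 2 and HFD 3, 31 had their barcode's largest count in a control sample, so the samples are not independent. The p-values may be too small, and the log2 differences are not estimates from barcodes assigned to HFD samples alone. edgeR's quasi-likelihood test with Benjamini-Hochberg adjustment called 8 genes higher and 13 lower in HFD of 2245 tested (0.935%), with 269 at an unadjusted p below 0.05. The log2 difference, HFD minus control, was -1.80 ± 0.32 (SE; adjusted p = 0.0228) for Retnla, 1.45 ± 0.27 (SE; adjusted p = 0.0228) for Ctsd and 1.70 ± 0.31 (SE; adjusted p = 0.0228) for Plac8, while Cd74 was not called, at -0.31 ± 0.12 (SE; adjusted p = 0.312). Mt1 was not called in member entries either, at -0.37 ± 0.27 (SE; adjusted p = 0.645). The test of whether members differed from the other entries in their diet difference called 80 of 9962 genes (0.803%) in the same setting and with the same limit. Of the genes named here, members minus others, it called Plac8, at 1.97 ± 0.24 (SE; adjusted p = 1.05e-12), and Mt1, at -0.77 ± 0.20 (SE; adjusted p = 0.015). It did not call Retnla, at -0.14 ± 0.20 (SE; adjusted p = 0.939), or Ctsd, at 0.52 ± 0.24 (SE; adjusted p = 0.636). With each barcode in a single sample, Plac8 in HFD members rested on few cells. The 17 UMIs of HFD 2 lay in 1 cell, and 2 cells of HFD 3 held 28 and 27 of its 56. HFD 1, which the fit left out, held 4.

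Members were not uniform. Mgl2 was at 0 in 26 of 79 and at 10 or more UMIs in 21, of which 9, 2 and 6 were in control 1, 2 and 3 and 4 in HFD 1. The 40 members with at least 3 Mgl2 UMIs had Mt2 at 249.97 CPM against 32.0 in the other 39, and Klrd1 at 317 against 543. They also had Ptgs2, a prostaglandin synthase, at 69.6 against 233 CPM, and Cd74 at 63457 against 57280.4. Control cells alone gave Klrd1 at 286 against 636 CPM and Ptgs2 at 83.8 against 263 CPM. Median depth was 10002 UMIs in the first set and 7691 in the second, and the sets were formed after their values were seen.

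Plac8, a gene of monocytes and their progeny, was at 0 in 51 members and at 3 or more UMIs in 11, 7 of them control cells. Those 11 cells had Ms4a4c at 676 against 260.5 CPM in the other 68, and the interferon response genes Isg15 at 264 against 65.1 and Ifi27l2a at 1499 against 469. H2-Oa was at 88.2 against 247 and Cst3, a protease inhibitor, at 2694 against 4700.5. Flt3 and Cd209a were present in both sets, at 78.4 and 73.5 CPM for Flt3. Ly6c2, the defining surface antigen gene of classical monocytes, was at 39.2 and 8.35 CPM, with UMIs in 2 and 5 cells. Control cells alone gave Isg15 at 284 against 71.0 CPM and H2-Oa at 81.1 against 256 CPM. A pair of the 11 cells also carried the lymphocyte genes named above.

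Ccl17, a chemokine that attracts T cells and is made by some type 2 dendritic cells, rested on a single cell. It was found in 15 members, all control, and 180 of its 243 UMIs lay in a control 3 cell that also held 15 UMIs of Ccl22, a chemokine with the same receptor. Without that cell 63 UMIs remained, 41 of them in a control 1 cell. The 16 HFD members held no Ccl17 UMI, and 3 counts in their 161874 UMIs would be 18.5 CPM. Il1b was at 10 or more UMIs in 48 of 79 members, of which control 1, 2 and 3 held 19, 8 and 12 and HFD 1, 2 and 3 held 2, 1 and 6. Mki67, a gene of dividing cells, held 5 UMIs in 5 members.

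**Figure D5:**
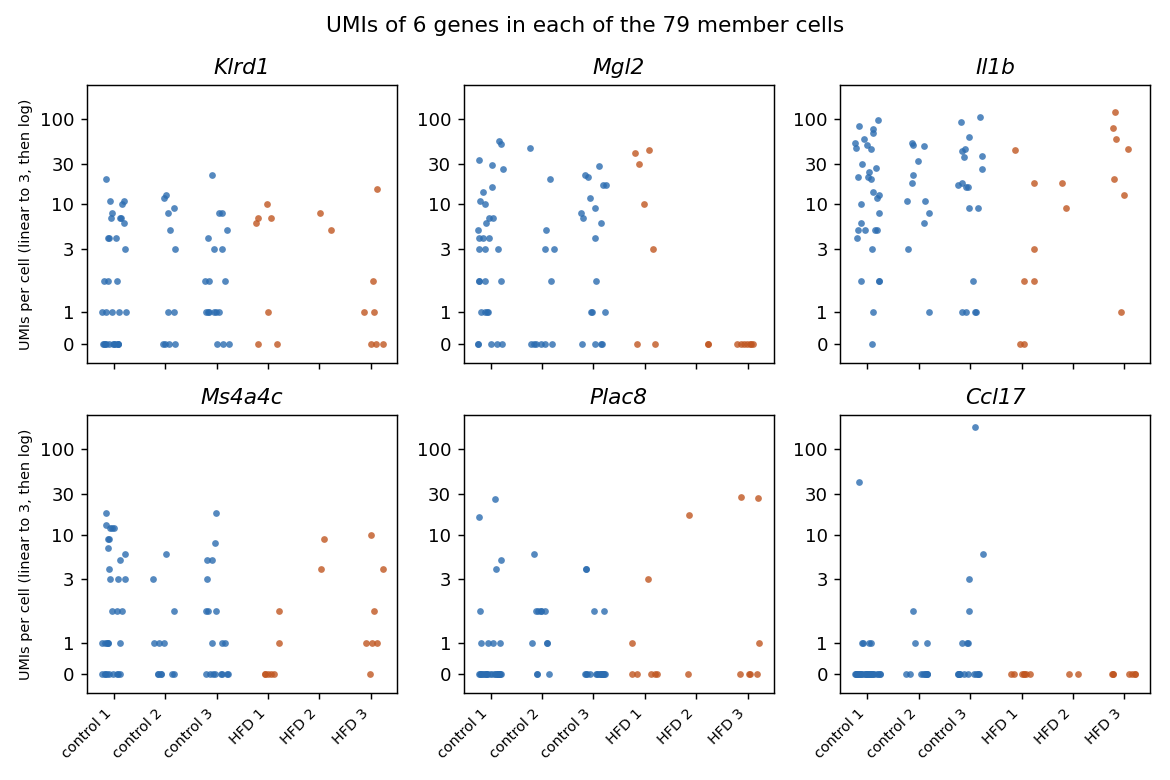
UMIs per cell (y axis, linear to 3 and logarithmic above) of 6 genes in each of the 79 members, by sample, control in blue and HFD in orange, with small random horizontal offsets. Klrd1 and Il1b are spread over all samples, Mgl2 is at 0 in the 9 cells of HFD 2 and HFD 3, and a single control 3 cell holds 180 Ccl17 UMIs.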

How the data were processed

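Single-cell RNA was counted in 6 samples of sorted visceral fat cells. The authors deposited whole-number UMI counts of 33456 genes per barcode, per the files; the submitters' processing notes name Cell Ranger, Seurat 2.4 and the build mm9, with no role given. No positions are printed. Each barcode was assigned to the sample where it had most UMIs, and cells with at least 200 genes and at most 10% mitochondrial UMIs were kept. CPM and sums per sample were computed here with Python 3.11.15, numpy 2.4.6, scipy 1.17.1 and pandas 2.3.3, figures with matplotlib 3.10.9, and the fit with edgeR 4.0.16 in R 4.3.3; the scripts were tested on simulated data.

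A list of 20 genes was named by the largest ratio of members to other cells, with at least 100 CPM in members and a higher level in members in every sample with 20 or more members, which was control 1 alone. Rule genes, clone-named genes, ribosomal and mitochondrial genes and antigen receptor segments were left out of it. List genes were also named as description. The members and the 41 gene lists (445 symbols, all found) were chosen with earlier results of these data known. The diet test within members needed 20 members in at least 2 samples of each diet and was not made. No doublet caller was run. Other counting of barcodes, other Cd209a limits, thinning and left-out samples were tried as alternatives.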

Additional observations from a re-analysis of the deposited data

Results flagged for a closer look

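Plac8 and Mt1, named above, had a diet difference in members that differed from that in the other cells by edgeR's quasi-likelihood test with Benjamini-Hochberg adjustment, with a barcode counted in all samples that list it. The log2 difference, members minus others, was 1.97 for Plac8 (adjusted p = 1.05e-12) and -0.77 for Mt1 (adjusted p = 0.015). Within member entries alone, the same kind of test did not call Mt1 between diets, at -0.37 ± 0.27 (SE; adjusted p = 0.645). Most of the HFD entries in that fit had their barcode's largest count in a control sample, so the p-values may be too small. The log2 differences are likewise not estimates from barcodes assigned to HFD samples alone. With each barcode in a single sample, Plac8 was found in 28 of 79 members, and HFD 1 had 4 of its UMIs while HFD 2 and HFD 3 had 17 and 56. The 17 lay in 1 cell, and 2 cells held 28 and 27 of the 56. HFD 1 was not in the fit.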

How the results depend on the processing

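The share of members, HFD minus control, was -4.81 percentage points and stayed below 0 under every alternative run. Cd209a limits of 2 and 5 UMIs gave -5.79 and -4.37, thinning to 3000 UMIs -5.96, kept cells with fewer than 6 collagen UMIs -4.64, and leaving out the 5 members with T or B cell genes -4.86. Counting every entry gave -1.75, and barcodes listed in a single sample -3.16; the exact permutation p was 0.2 for the latter and 0.1 for the others, the smallest possible. Leaving out each sample in turn gave -5.58 to -3.76, each with an exact permutation p of 0.1 over 10 arrangements. With the replicate number as a block the difference was again -4.81, with an exact p of 0.25 over 8 arrangements, the smallest that block allows; the labels give only a shared number and no common source.

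The count of genes higher in members was 170 and ranged from 169 to 203 when each sample with at least 5 members was left out in turn. Against cells with 20 or more C1q UMIs it was 204, of which 161 were among the 170. Sums over all 6 samples with no condition on single samples gave 260 higher, 157 of them shared, and 648 in place of 498 lower. The cause was not tested, but fewer conditions were set. Cd209a limits of 2 and 5 gave 169 and 165, of which 152 and 144 were shared. For the 20 named genes no alternative reversed the ratio. They were picked for the largest ratios in largely the same cells, so this is no independent check. The alternatives other than counting every entry that were listed for the diet test and for its comparison with other cells (DESeq2, no count filter, upper quartile scaling, replicate block, left-out samples, other limits or barcodes) were not run, because the test itself could not be made. The collagen denominator, the lymphocyte genes, the pooled sums, the block on the share, and the limits and left-out samples for the gene count were chosen after seeing the data.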
